A study of Sus scrofa with 4 samples.

Results

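The fatty acid binding proteins FABP1 to FABP7 were examined in porcine intramuscular adipocytes across 4 conditions. Members were all probes that carry 1 of these 7 gene names in the array annotation, which gave 23 of 43603 probes and 7 of 34853 gene names. FABP4 had 7 probes, FABP3 and FABP5 had 4 each, FABP1 had 3, FABP2 and FABP6 had 2 each, and FABP7 had 1. The probes were taken by gene name and not by their values, although the family itself was picked with earlier results of these arrays known.

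Fatty acid binding proteins are small cytosolic proteins that hold a long-chain fatty acid inside a barrel and carry it to membranes, to oxidation, to esterification or to nuclear receptors. Each member is named for a tissue in which it is abundant: FABP1 for liver, FABP2 for intestine, FABP3 for heart and skeletal muscle, FABP4 for adipocytes, FABP5 for epidermis, FABP6 for ileum, where it binds bile acids, and FABP7 for brain. FABP4, also called aP2, is a classical target of PPARG and is widely used as a mark of adipocyte differentiation, and adipocytes express FABP5 beside it.

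PIP cells are a preadipocyte line from the longissimus thoracis muscle of a Duroc pig. Mature adipocytes (pMA) were the same line after 4 days in a medium with insulin, dexamethasone, octanoate and oleate, and they served as the unstimulated control. The stimulated groups were pMA given serotonin at 100 μM for 12 h, a dose that the labels write per ml, and pMA given TNF-α at 2.5 µg/mL for the same time, so that both carry the differentiation treatment as well. The comparisons asked what differentiation did and what each stimulus did to differentiated cells. Each condition had 1 array, labelled from RNA that the methods describe as pooled within the group, and all the cells came from 1 line. Differences between conditions therefore have no replicate check on these arrays, no test across samples was possible, and every fold given here describes 4 arrays. The labels do not mention a vehicle or an unstimulated culture held for the same 12 h.

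Values are log2 intensities relative to the 75th percentile of each array, so that 0 is the level of a fairly bright probe. A probe was taken as measured where the scanner software marked it well above background. Between 56.5% and 66.0% of all probes met this mark on the 4 arrays. Spots of 1 probe repeated on an array gave a log2 difference between arrays an SD of 0.15 to 0.17, and of 0.21 to 0.23 for faint probes. This SD covers spot noise and not the variation between cultures. The defining markers of adipocytes were present only in part. Of 7 adipocyte markers, 5 were well above background in PIP cells, 4 in pMA, 5 after TNF-α and 4 after serotonin. CIDEC, a lipid droplet protein, was 14.7-fold higher in pMA than in PIP cells by its brighter probe, although its 2 probes ranged from 0.75 to 3.87 on the log2 scale. PPARG was faint, at -4.28 in PIP cells and -3.21 in pMA. It was 2.1-fold higher in pMA by its brightest probe, and its 3 probes ranged from 0.96 to 1.52 on the log2 scale. With TNF-α CIDEC was a further 3.83-fold higher. LEP and LIPE were 1.24-fold and 1.09-fold higher in pMA, and CEBPA was well above background only after TNF-α. PLIN1, the main coat protein of adipocyte lipid droplets, was not well above background on any array. The adipokine ADIPOQ was so only in PIP cells, at -4.53. After serotonin CIDEC, LIPE, LEP and PPARG differed from unstimulated pMA by 0.27, 0.58, 0.16 and -0.08 on the log2 scale.

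The probes are 60 bases long and read in the sense of the mRNA, and their places along the transcript show which part of each message was measured. FABP4 differed most among the members under the deposited background correction. Its first probes, across the start codon and in the coding region, are shown first. They are named by their start in the annotated transcript, with the start codon in capitals.
FABP4 at 51: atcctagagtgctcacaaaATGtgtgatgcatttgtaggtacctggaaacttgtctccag
FABP4 at 207: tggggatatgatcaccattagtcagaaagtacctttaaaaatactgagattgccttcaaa
FABP4 at 387: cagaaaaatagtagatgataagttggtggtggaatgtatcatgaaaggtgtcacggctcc

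The remaining FABP4 probes start further along the message. The probes at 473 and 507 overlap, and the run of 27 bases that they share is in capitals, so that they are not separate readings of the message. The probes at 507 and 556 also share a run of 12 bases. The last bases of the probe at 556 hold the polyadenylation signal AATAAA, in capitals, and the probe at 811 starts beyond it.
FABP4 at 473, last bases: aacCTCTGTTGGATGTATTGTCCCGACATA
FABP4 at 507, first bases: CTCTGTTGGATGTATTGTCCCGACATAttt
FABP4 at 556, last bases: tgttcaatatgcttgttggttaAATAAAac

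FABP3 was read in its coding region by 3 probes, and the last of these ends on the stop codon, in capitals. The probe at 481 was designed on another reference transcript.
FABP3 at 197: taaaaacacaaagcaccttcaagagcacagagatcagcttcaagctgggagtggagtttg
FABP3 at 338: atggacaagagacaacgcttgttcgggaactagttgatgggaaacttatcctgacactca
FABP3 at 385: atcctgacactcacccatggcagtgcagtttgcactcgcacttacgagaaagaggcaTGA

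FABP5 was read at the end of its message. The probe at 456 spans the stop codon, in capitals in its line. The probes at 508, 511 and 516 lie within a few bases of each other, and the run of 17 bases common to their beginnings is in capitals. Any pair of them shares a run of 51 to 56 bases, so that they are near-copies of 1 target and not separate readings.
FABP5 at 456, around the stop codon: actcgggtctatgaaaaagtagagTGAaat
FABP5 at 508, first bases: ggataggaATTAGTTGTGAGGATGA
FABP5 at 511, first bases: taggaATTAGTTGTGAGGATGAaca
FABP5 at 516, first bases: ggATTAGTTGTGAGGATGAacaagc

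The FABP6 probes share 54 bases and both contain the polyadenylation signal, which is in capitals in the stretch from the probe at 455.
FABP6 at 455, around the signal: cacaaagccacaAATAAAcctggtgtaaca
The letters AATAAA, searched on both strands, were found on the mRNA strand in 4 of the 23 member probes and on the other strand in 0. Of all 43603 probes, 9.6% held them on the mRNA strand and 4.17% on the other strand. Over the members, 9 pairs of probes overlapped by 8 bases or more according to their starts.

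**Figure D1:**
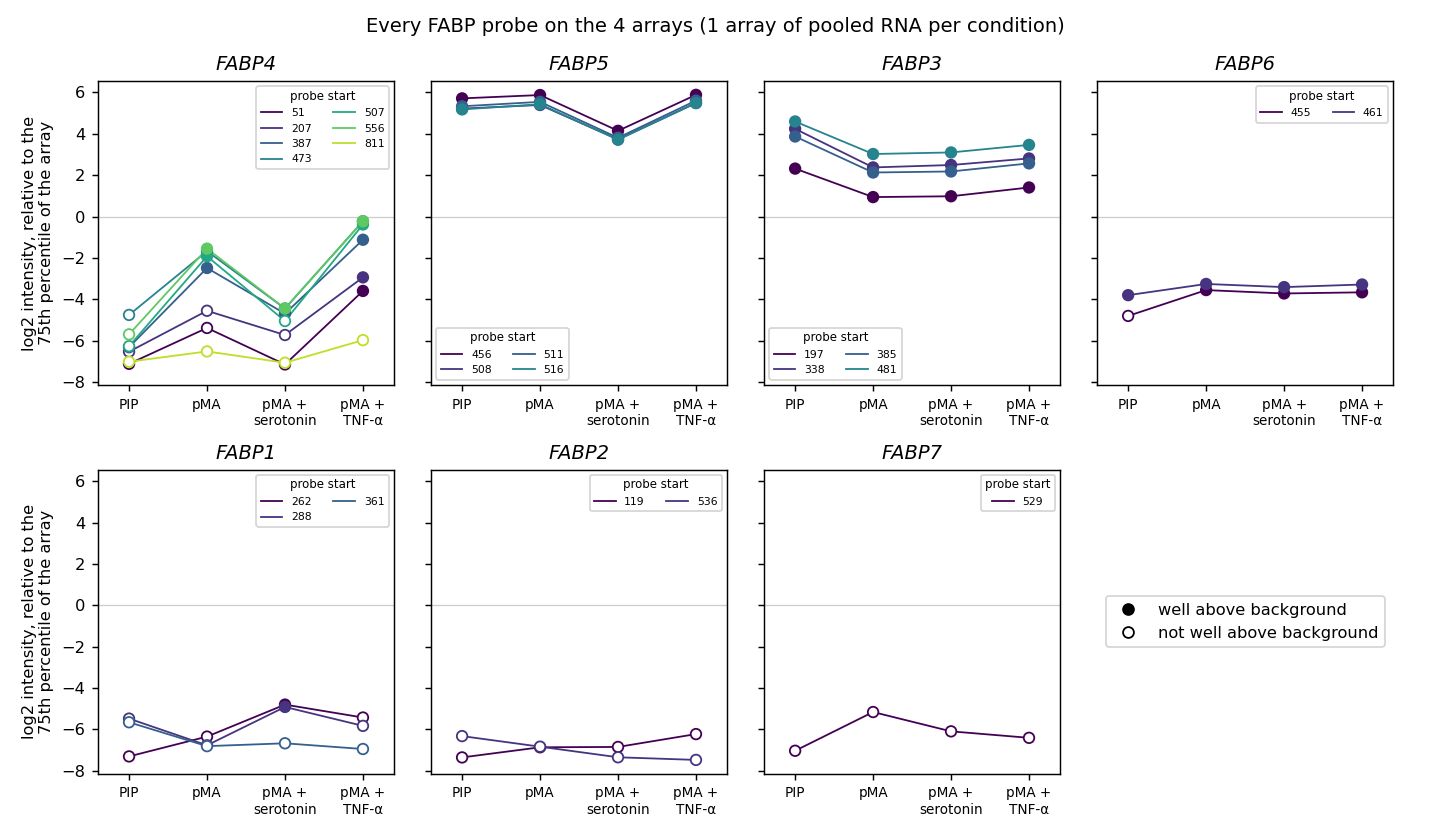
Log2 intensity (y axis, relative to the 75th percentile of the array) of every FABP probe on the 4 arrays (x axis), 1 line per probe named by its start in the transcript, with filled circles where the probe was well above background and hollow circles where it was not. FABP4 had no filled circle in PIP cells and was highest after TNF-α on its 6 measured probes, FABP5 was lowest after serotonin on all 4 probes, and FABP3 was highest in PIP cells on all 4 probes. Levels of different probes are not comparable with each other.

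FABP4, the adipocyte member, was the one most changed by the conditions under the deposited background correction. No FABP4 probe was well above background in PIP cells. The probe at 473, which stands for the gene because its mean was the highest, had a log2 intensity of -4.76 in PIP cells, -1.67 in pMA, -4.44 after serotonin and -0.23 after TNF-α. The probe at 556 read -5.70 in PIP cells, -1.55 in pMA, -4.45 after serotonin and -0.23 after TNF-α. The probe at 387, in the coding region, read -6.32, -2.49, -4.69 and -1.12 in the same order. The order of the conditions was the same on these probes: TNF-α above unstimulated pMA, pMA above serotonin, and PIP cells below background. The probe at 507 read -6.27, -1.92, -5.05 and -0.38, and after serotonin it was not well above background. The probes at 51 and 207 were well above background only after TNF-α, at -3.60 and -2.94. The probe at 811 was not well above background anywhere.

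FABP4 was thus higher after differentiation on the 4 probes that were measured in pMA. The probe at 473 was 8.48-fold higher in pMA, against a PIP value that was not well above background but exceeded the faintest measurable signal there. Against that faintest signal, the other probes were at least 6.24-fold higher at 387, at least 9.24-fold at 507 and at least 11.9-fold at 556. These limits rest on the faintest marked probe of the PIP array and not on a detection limit of each probe. They hold only under the deposited background correction, and the full size of the difference was not measured.

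After serotonin FABP4 was 6.83-fold lower than in unstimulated pMA, a log2 difference of -2.77. The measured probes gave 4.62-fold to 7.43-fold. The probe at 507 gave 8.75-fold in the same direction, with a serotonin value that was not well above background. After TNF-α it was 2.72-fold higher, a log2 difference of 1.45, with 2.50-fold to 2.90-fold over 4 measured probes. The probe at 51 gave a bound in the same direction of at least 2.06-fold. The probe at 207 gave 3.06-fold in that direction, against a pMA value that was not well above background. Both stimulated arrays were set against the same unstimulated array, so an error of that array would enter both values. The direct comparison does not use it: FABP4 was 18.6-fold lower after serotonin than after TNF-α, a log2 difference of -4.22. The 3 measured probes lay between 11.9-fold and 18.6-fold, with 3 bounds in the same direction. The paper's array text lists FABP4 as higher after both stimuli. Its RT-qPCR, from independent experiments, found FABP4 significantly lower after both. The rise after TNF-α here is thus opposite to the RT-qPCR, and the fall after serotonin has its direction. The paper's array text also lists FABP3 and FABP5 as lower after both stimuli, which held here only for FABP5 after serotonin. It gives FABP6 as higher after both, FABP1 after serotonin alone and FABP7 after TNF-α alone. Here FABP6 differed by -0.15 after serotonin and -0.03 after TNF-α. FABP1 was just above background only after serotonin, without a fold against pMA, and FABP7 was not well above background on any array.

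The FABP4 signal was faint. The deposited intensities of the 4 probes at 387 to 556 were 85.4 to 163 in pMA, 257 to 478 after TNF-α and 17.1 to 26 after serotonin, whereas the faintest probes marked well above background read 14.7 to 19.3. The serotonin values lie close to that limit. A background correction by normexp, which raises faint values, brought the log2 difference after serotonin to -1.45 and after TNF-α to 0.99, just under a 2-fold change. It also brought the value for pMA against PIP cells from 3.08 to 1.56, and the difference between serotonin and TNF-α from -4.22 to -2.44. Under normexp FABP3, at -1.58 between pMA and PIP cells, was as large as the FABP4 value there, and FABP5, at -1.70, differed more than FABP4 after serotonin. FABP4 remained the most changed after TNF-α and between the stimuli.

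FABP5, the epidermal member that adipocytes also express, was bright on every array. The probe at 456 read 5.71 in PIP cells, 5.87 in pMA, 4.14 after serotonin and 5.88 after TNF-α. The probe at 508 read 5.22, 5.39, 3.73 and 5.49 in the same order. The probe at 511 read 5.33, 5.54, 3.81 and 5.61, and the probe at 516 read 5.18, 5.43, 3.71 and 5.48. Serotonin-stimulated cells stood apart as low, and the other conditions lay close together on each probe.

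After serotonin FABP5 was 3.32-fold lower than in unstimulated pMA by the probe at 456, a log2 difference of -1.73, and 3.16-fold to 3.33-fold lower over the 4 probes. Set against TNF-α it was 3.34-fold to 3.48-fold lower. These differences lay far outside the SD of repeated spots, 0.15 and 0.16 on the log2 scale. Differentiation moved FABP5 by 0.16 to 0.25 on the log2 scale, and TNF-α by 0.01 to 0.10. Neither shift has a settled direction, since scaling to the array median turned the first to -0.19 and the second to -0.07. Both FABP4 and FABP5 were at least 2-fold lower after serotonin, whereas over differentiation and TNF-α FABP4 alone of the 2 reached that limit.

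FABP3, the muscle and heart member, was well above background on every probe and array. The probe at 481 read 4.60 in PIP cells, 3.02 in pMA, 3.10 after serotonin and 3.46 after TNF-α. The probe at 338 read 4.24, 2.37, 2.49 and 2.81 in the same order, and the probe at 385 read 3.87, 2.13, 2.18 and 2.57. PIP cells were the highest on all 4 probes, with the probe at 197 reading 2.32 there against 0.94 in pMA, 0.98 after serotonin and 1.41 after TNF-α.

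FABP3 was lower in pMA than in PIP cells by 2.60-fold to 3.64-fold over its probes, and the probe at 481 fell by 1.57 on the log2 scale. Its direction over this step was opposite to that of FABP4. After TNF-α it was 0.43 to 0.46 higher on the log2 scale, or 1.35-fold to 1.38-fold, which is under a 2-fold change but outside the SD of repeated spots, 0.15. After serotonin it differed from unstimulated pMA by 0.04 to 0.12, which is within that SD of all repeated spots. Bright repeated spots alone, from 8 probes on each array, had a smaller SD within an array, 0.06 in pMA and 0.07 after serotonin. Against TNF-α the serotonin array was 0.32 to 0.42 lower.

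FABP6, the ileal bile acid binding member, was faint. The probe at 461 read -3.80 in PIP cells, -3.26 in pMA, -3.41 after serotonin and -3.29 after TNF-α. The probe at 455 was too faint in PIP cells to stand well above background, at -4.80, and read -3.55 in pMA, -3.72 after serotonin and -3.66 after TNF-α. PIP cells were the lowest on both probes. The probes disagreed on the size of the difference, although they share 54 bases. It was 1.46-fold by the probe at 461 and 2.38-fold by the probe at 455, whose PIP value was not well above background. The stimuli moved FABP6 by 0.16 or less on the log2 scale, within the SD of faint repeated spots.

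FABP1, the liver member, stood well above background neither in PIP cells and pMA nor after TNF-α. After serotonin the probes at 262 and 288 were just above it, at -4.80 and -4.92, and the probe at 361 was not. The values at 262 were -7.31 in PIP cells, -6.35 in pMA and -5.43 after TNF-α. Those at 288 were -5.48, -6.77 and -5.83 in the same order. The probes at 262 and 288 overlap by 34 bases by their starts and share a run of 24, so that they are not fully separate readings. No fold against pMA could be given, because the serotonin values did not exceed the faintest measurable signal of the pMA array. Against TNF-α the probe at 288 was at least 1.26-fold higher and the probe at 262 at least 1.36-fold higher. Its values at 361 lay between -6.95 and -5.66. FABP2, the intestinal member, and FABP7, the brain member, were not well above background on any array. The single FABP7 probe read -7.03 in PIP cells, -5.16 in pMA, -6.10 with serotonin and -6.41 with TNF-α, and at this brightness the values have no order.

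**Figure D2:**
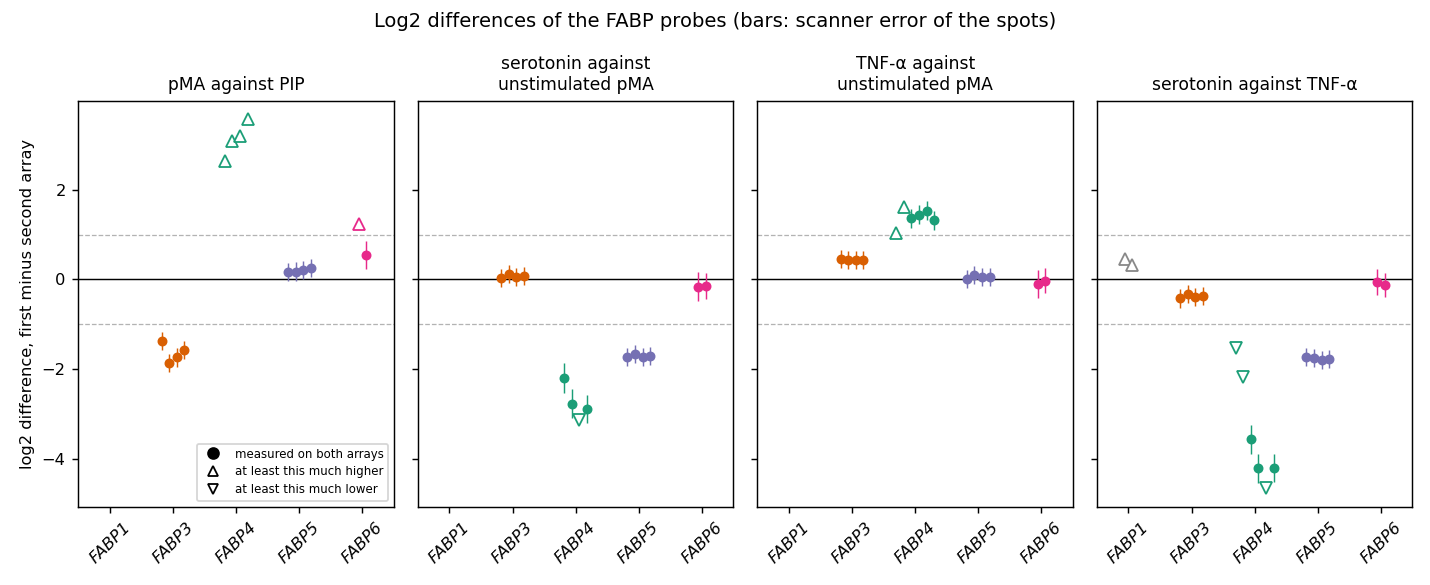
Log2 difference between arrays (y axis) for each probe of the 5 members that gave any ratio (x axis), in the 4 comparisons. Filled circles are probes measured on both arrays with the scanner's error of the spots as bars, and dashed lines mark a 2-fold change. Hollow triangles are lower bounds, or plain differences where the fainter value exceeded the faintest measurable signal of its array. All FABP4 probes with a ratio were higher in pMA, lower after serotonin and higher after TNF-α, and all FABP5 probes were 3.16-fold to 3.33-fold lower after serotonin. The small FABP5 values for differentiation and TNF-α, and the FABP6 values for TNF-α and for serotonin against TNF-α, changed sign under another processing.

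The counts of changed members were read against those of all gene names with a ratio, which numbered 18632 for differentiation, 19092 for serotonin, 19782 for TNF-α and 21861 for serotonin against TNF-α. The shares given here are of these. Between pMA and PIP cells 4 of the 7 members had a ratio. FABP4 was at least 2-fold higher, where 9.92% of gene names were, and FABP3 was at least 2-fold lower, where 3.56% were. After serotonin 4 members had a ratio, and 0 were at least 2-fold higher against 2.08% of gene names, while FABP4 and FABP5 were at least 2-fold lower against 4.74%. After TNF-α FABP4 was at least 2-fold higher, against 2.21% of gene names, and 0 of 4 members were lower, against 1.34%. With serotonin set against TNF-α 5 members had a ratio, of which 0 were higher (1.83% of gene names) and FABP4 and FABP5 were lower (5.08%).

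The median log2 difference of the members with a ratio was 0.35 between pMA and PIP cells, where the median of all gene names with a ratio was 0.12. It was -0.94 after serotonin against 0.01, 0.23 after TNF-α against 0.01, and -0.36 for serotonin against TNF-α, where the median of all was -0.04. With 4 or 5 genes in each, these medians describe the members and are not a result about the family.

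**Figure D3:**
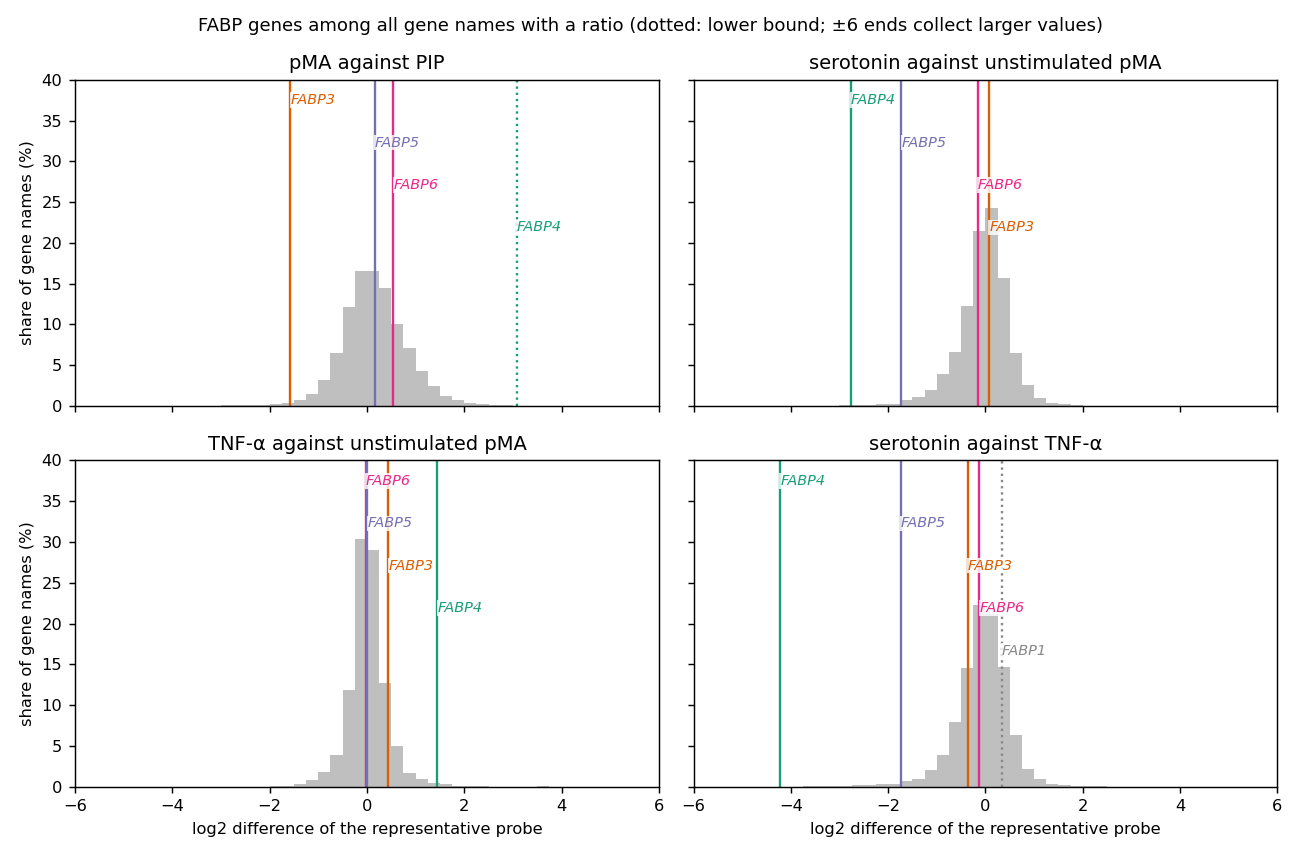
Share of gene names (y axis, %) by the log2 difference of their brightest probe (x axis) in the 4 comparisons, with vertical lines at the FABP members that gave a ratio and dotted lines for lower bounds. After serotonin FABP4 at -2.77 and FABP5 at -1.73 lie in the left tail, while FABP3 and FABP6 lie in the middle of the distribution.

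Markers of other cells were read beside the members. After serotonin the skeletal muscle markers ACTA1, the actin of the contractile apparatus, and DES, an intermediate filament of muscle, were 3.83-fold and 2.03-fold lower than in unstimulated pMA by their brightest probes. The probes of ACTA1 ranged from -2.63 to -0.26 on the log2 scale and those of DES from -2.59 to -0.55. CKM, the muscle creatine kinase, was 1.69-fold lower, and MYOG, a regulator of muscle differentiation, differed by -0.01. Of the list, 4 of 6 muscle markers were well above background on each array. The summed level of the 6, in multiples of the 75th percentile, was 644 in PIP cells, 658 in pMA, 175 after serotonin and 610 after TNF-α. Nearly all of this sum is ACTA1, at a log2 intensity of 9.33 in pMA and 7.40 after serotonin. MYOD1, the defining regulator of muscle, was not well above background anywhere. COL1A1, of fibroblasts, was 2.66-fold lower after serotonin by its single probe, while the fibroblast markers THY1 and VIM were 1.83-fold and 1.27-fold lower. The endothelial PECAM1 was 2.75-fold lower by its brightest probe, with its 4 probes from -1.46 to -0.44 on the log2 scale. The summed endothelial level was 1.59 in PIP cells, 1.16 in pMA, 0.483 after serotonin and 1.16 after TNF-α. Most of this sum is PECAM1, at a log2 intensity of -0.20 in pMA and -1.66 after serotonin. The endothelial genes CDH5 and TEK were not well above background. Of 6 macrophage markers 2 were on the array, and CD14 was well above background on every array while CD163 was on none. CD14 was 1.38-fold higher in pMA than in PIP cells and 1.58-fold higher with TNF-α, and differed by -0.02 on the log2 scale with serotonin. The summed level was 1.36 in PIP cells, 1.89 in pMA, 1.86 with serotonin and 2.97 with TNF-α. Of 4 epithelial markers of gut or liver, the tissues of FABP1, FABP2 and FABP6, 1 was well above background in PIP cells, 1 in pMA, 2 with serotonin and 3 with TNF-α, and their summed level was 0.0738 to 0.170. Of 4 Schwann or glial markers, beside FABP7, between 0 and 2 were, with a summed level of 0.0798 to 0.104. The part of these shifts in the FABP values was not tested, and in RNA pooled from a culture fewer cells of a type and less RNA per cell cannot be told apart.

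The closest relatives of the family, the other intracellular lipid binding proteins, were mostly faint. Of 9 listed names 7 were on the array, and between 3 and 5 were well above background. PMP2, the myelin fatty acid binding protein, which lies between FABP4 and FABP5 on the pig chromosome in RefSeq's Sscrofa11.1 annotation, was not well above background on any array.

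Genes that take up, activate, store and release fatty acids were read from a list of 40, of which 31 were on the array. Between pMA and PIP cells 27 had a ratio, and 6 were at least 2-fold higher and 1 was lower. Of all gene names with a ratio 9.92% were higher and 3.56% lower. CD36, the fatty acid translocase, was 36.0-fold higher by its brightest probe, although its 4 probes ranged from 1.19 to 5.17 on the log2 scale. ANGPTL4, an inhibitor of lipoprotein lipase, was 15.3-fold higher and PLIN2, a droplet coat protein, 8.78-fold higher. CEBPB, SLC27A1 and PPARG made up the rest of the 6, and CAV1, the caveolar protein, was 2.17-fold lower.

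After serotonin 27 genes of that list had a ratio, and 2 were at least 2-fold higher and 0 lower, against 2.08% and 4.74% of all gene names. LPL, lipoprotein lipase, was 5.32-fold higher and CD36 2.78-fold higher and PLIN2 lay just under that limit. LPL and CD36, which act in fatty acid entry, were thus higher on the array on which FABP4 and FABP5 were lower. After TNF-α 29 had a ratio, and LPL, at 2.42-fold higher, was the only one at least 2-fold different. Of all gene names 2.21% were higher there and 1.34% lower. PPARG, the nuclear receptor that drives adipogenesis and FABP4, differed by -0.08 on the log2 scale after serotonin. Its 3 probes ranged from -0.22 to 0.09 there, so this shift has no settled direction. After TNF-α PPARG was 1.86-fold higher. Its part in the FABP4 values was not tested. The list had a median log2 difference of 0.12 for differentiation, -0.04 after serotonin and 0.09 after TNF-α, close to the medians of all gene names.

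**Figure D4:**
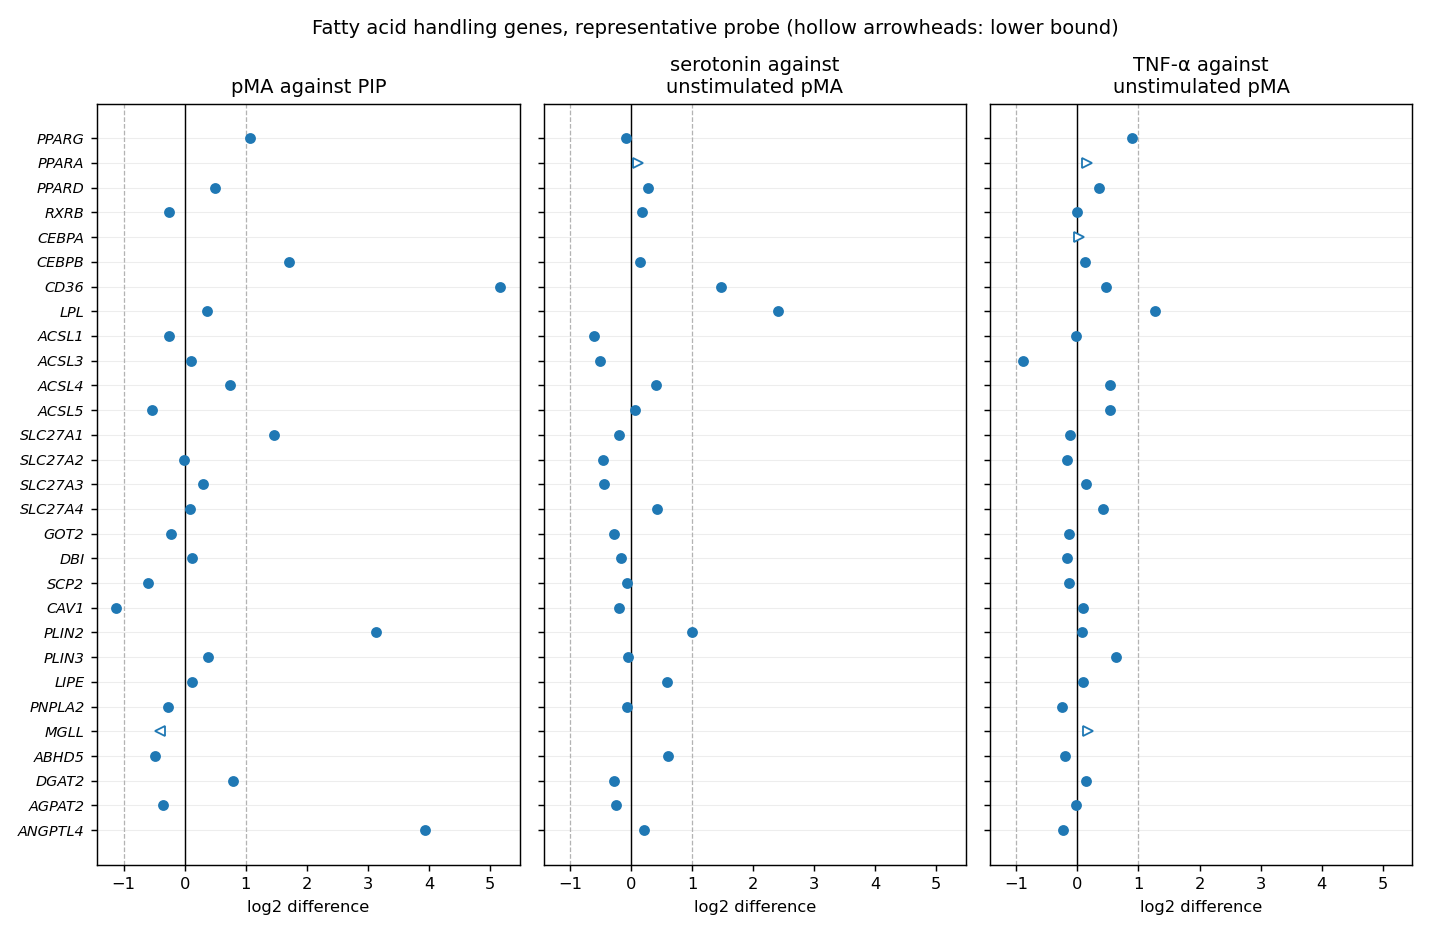
Log2 difference (x axis) of the fatty acid handling genes that gave a ratio (y axis), by their brightest probe, for differentiation and for each stimulus, with hollow arrowheads at lower bounds and dashed lines at a 2-fold change. CD36, ANGPTL4 and PLIN2 were the highest with differentiation, LPL and CD36 after serotonin, and LPL after TNF-α.

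For each member measured on at least 3 arrays, the gene symbols with the most similar profile were sought by the Euclidean distance between log2 values centred on their own mean. FABP5 was nearest to C5AR1 (distance 0.05), LSAMP (0.08) and MYLPF (0.11) of 4762 genes over 4 arrays. C5AR1, the receptor of complement C5a, read -1.69 in PIP cells, -1.54 in pMA, -3.21 after serotonin and -1.47 after TNF-α. FABP3 was nearest to PPA1 (0.08), HSP90B1 (0.11) and CCSAP (0.12), and FABP6 to PPRC1 (0.04), LACTB2 (0.05) and RNASET2 (0.05). For FABP4, over its 3 arrays, the nearest of 4892 genes were CIT, at 0.52, A2M, at 0.60, and LDB3, at 0.77. The distance grows with the size of a member's differences, so it cannot be compared between members. The median distance to all genes was 3.08 for FABP4 and 0.64 for FABP6. Among the other members FABP5 came closest to FABP4, at a distance of 1.76 and rank 56. With 3 or 4 points in a profile many genes can lie near a member, and the distances are a description.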

How the data were processed

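Gene expression was measured on 4 porcine Agilent arrays in 1 colour, 1 for each of PIP cells, pMA, pMA with serotonin and pMA with TNF-α. The deposited files hold background-subtracted spot intensities with a scanner error and a flag for spots well above background (read as other values, 0 or 1), made by the authors with Agilent Feature Extraction 10.7.3.1 per the submitters' processing notes. The methods also describe a mouse array read with GenePix, and a two-color porcine array, which the deposited files are not. The deposited value table holds a normalized signal per probe on a linear scale and served as an alternative. No genome build of the probes is given in the sources used here.

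Control and outlier spots were left out, intensities were divided by the 75th percentile of the array and log2 transformed, and spots of 1 probe were averaged. Each gene took the ratio of its brightest probe, judged by the mean of the 4 arrays. Where only 1 of the arrays compared was well above background, the other was raised to its faintest measurable signal if it lay under it. Such a ratio is called a lower bound. A value above that signal was used as read, and its ratio is then a plain difference and no strict limit. Genes at least 2-fold different were counted. Named genes were the members, listed genes at least 2-fold different with the defining markers, and the 3 most similar profiles per member. The members and lists were chosen with earlier results of these data known. Python 3.11.15, numpy 2.4.6 and pandas 2.3.3 were used, with limma 3.58.1 in R 4.3.3 for normexp with an offset of 50, and the scripts were tested on simulated data. The number of arrays limits the precision. There were 11 alternatives. Protein and promoter sequences were not used here. One of the listed relatives is not reported here.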

Additional observations from a re-analysis of the deposited data

How the results depend on the processing

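The ratios of the members were recomputed under 10 settings, and the counts at a stricter cutoff of 4-fold as well. Centring on spike-in controls was chosen after seeing the data. Of 17 ratios 13 kept their sign under every setting that gave a value. Many settings could hardly turn a large ratio. The filter settings leave a ratio measured on both arrays unchanged. Scaling to the median, to spike-ins or by the deposited value table shifts all genes of an array alike. The other 4 were small: FABP5 between pMA and PIP cells (-0.19 with scaling to the median, 0.54 with spike-ins), FABP5 after TNF-α (-0.07 to 0.08), FABP6 after TNF-α (-0.16 to 0.05) and FABP6 between serotonin and TNF-α (-0.13 to 0.04). The scaling to the median moved the median of all genes between pMA and PIP cells from 0.12 to -0.22, and spike-ins moved it to 0.52. FABP3 lay between -1.92 and -1.19 there, and FABP5 between -1.74 and -1.62 after serotonin. FABP4 depended on the background correction: normexp gave 1.56 for pMA against PIP cells, -1.45 after serotonin, 0.99 after TNF-α and -2.44 between them, where the faintest probe gave a bound of -1.53. The number of members at least 2-fold different was 2, 2, 1 and 2 for differentiation, serotonin, TNF-α and serotonin against TNF-α. Normexp brought the count after TNF-α to 0. With no filter on dim probes it was 4 for differentiation, 3 after serotonin and 2 after TNF-α, and with the faintest probe of a gene it was 3 for differentiation. With probes well above background on all 4 arrays, which leaves out FABP4, it was 1, 1, 0 and 1. The 4-fold cutoff gave the same counts from a different gene, since the member counted there was FABP4. No paired analysis was possible because each group had 1 array.

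The arrays are single and the RNA was pooled, so the variation between cultures is unknown. FABP4 after serotonin lies near background.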

Other observations

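A probe outside the 7 gene names is annotated as part of a pig liver fatty acid binding protein. It was picked out after its values were seen, from the descriptions of all probes. It was well above background on every array, with log2 intensities of 2.40 in PIP cells, 2.26 in pMA, 2.34 after serotonin and 2.00 after TNF-α, while of the 3 probes named FABP1 the ones at 262 and 288 were just above background with serotonin and none was on the other arrays. The differences were -0.15 with differentiation, 0.08 after serotonin and -0.26 after TNF-α. The annotation gives this probe a start of 990 in its assembled transcript, and no transcript sequence was at hand to place it.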
